A study of Macaca fascicularis
Homo sapiens with 2 samples.

Results

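The BCL2 family decides whether the outer mitochondrial membrane is opened, the step that commits most vertebrate cells to apoptosis. Its transcripts were followed here for 10 genes chosen by name: the anti-death members BCL2, BCL2L1 and MCL1, the pore-forming effectors BAX and BAK1, and the BH3-only members BCL2L11, BBC3, PMAIP1, BID and BIK. All 10 human copies carry a symbol in the files, while 8 cynomolgus copies do and BAX and PMAIP1 do not. The members are therefore 18 gene copies of 43173, 10 of 20669 human genes and 8 of 22504 cynomolgus genes. Each copy was measured in cells of its own species, that is in barcodes with at least 1000 UMIs of which at least 90% mapped to that genome.

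BCL2, BCL2L1 (BCL-XL) and MCL1 hold BAX and BAK1 in check and bind BH3-only proteins. BH3-only proteins are the stress sensors of the family. They occupy the anti-death members or engage BAX and BAK1 directly, so the outcome depends on the balance between the sides. Pluripotent stem cells are known for dying readily after DNA damage, and neural progenitors prune their numbers by the same pathway.

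The cells were UGP2 knockout lines of human and cynomolgus macaque, and UGP2 makes UDP-glucose, the precursor of glycogen. The human line H9 derives from an embryo, and the macaque line 56A1 consists of induced pluripotent stem cells. Day 0 cells of both lines were pluripotent cultures in UPPS medium, and day 7 cells had spent 7 days in neural induction medium with SB431542 (10 µM) and LDN193189 (100 nM), which block activin/NODAL and BMP receptors. Cells of both species were mixed before capture, so each day is 1 droplet library with 3' UMI counts. All 4 groups of cells carry the knockout, no unedited cells were analysed here, and each species is 1 line. Differences between the species are differences between these lines, and no effect of UGP2 loss was measured. No replicates existed, since each day had 1 library, so no test was run. All intervals are 95% intervals that cover counting error only. They are exact, except those of the balance differences, which use a normal approximation.

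After filtering there were 5206 human and 2016 cynomolgus cells on day 0 and 8173 and 6467 on day 7, with group medians of 4596 to 6408 own-genome UMIs per cell. On day 0, 38.2% of the barcodes that passed were called neither species, against 9.16% on day 7. In both libraries together, 50 barcode sequences were shared. With species called at 80% of UMIs, day 0 held 4466 cynomolgus cells in place of 2016. The 2016 cells had the highest median share of other-genome UMIs of the 4 groups, just under the limit of the call. Cynomolgus day 0 levels and changes thus describe only the cells that passed this call. The part of other-genome UMIs in them was not tested. Summed pluripotency markers went from 4672 to 1175 CPM (UMIs of a gene scaled to a fixed total of own-genome UMIs) in human cells and from 958 to 290 CPM in cynomolgus cells, where 6 of the 11 markers have a symbol. Summed neural progenitor markers went from 506 to 5142 CPM and from 412 to 4726 CPM. Summed hypoxia markers also differed between the days, going from 265 to 635 CPM in human cells and from 375 to 1343 CPM in cynomolgus cells. Most of the human difference was P4HA1, which went from 60.5 to 381 CPM, while ADM went from 54.8 to 5.51 CPM. The median mitochondrial share went from 8% to 3.85% and from 4.35% to 2.23%. The part of both in the differences between days was not tested. Markers of endoderm and of trophectoderm and amnion summed to under 15 CPM in all 4 groups. On days 0 and 7, neuron markers of human cells summed to 44.4 and 43.4 CPM, neural crest markers to 65.0 and 38.5 CPM and mesenchyme markers to 52.7 and 83.7 CPM. The same sums in cynomolgus cells were 50.4 and 137 CPM, 28.7 and 19.9 CPM, and 21.4 and 10.3 CPM.

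The largest movement in the family was an exchange of BH3-only members. In human cells PMAIP1 (NOXA), the partner that inactivates MCL1, was the second most abundant of the 10 members after BAX on day 0 and nearly gone on day 7. BCL2L11 (BIM), which binds every anti-death member, took its place. BCL2L11 was also higher on day 7 in cynomolgus cells, by a smaller factor. The anti-death side as a whole stayed at nearly the same summed level in both species.

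Among the anti-death members, BCL2 differed most between the lines. In human cells BCL2 was at 11.97 CPM on day 0 (10.8 to 13.2, 415 UMIs) and 26.5 CPM on day 7 (25.0 to 28.0, 1157 UMIs). In cynomolgus cells it was at 86.8 CPM (81.3 to 92.5, 927 UMIs) and 78.1 CPM (75.2 to 81.1, 2705 UMIs). Both human levels lay below both cynomolgus levels. The human level was 2.21-fold higher on day 7 (1.97 to 2.48), whereas the cynomolgus ratio of day 7 to day 0 was 0.900 (0.835 to 0.971). The cynomolgus level was 7.25 times the human level on day 0 (6.45 to 8.16) and 2.95 times on day 7 (2.75 to 3.16). These ratios set counts on 2 gene annotations side by side, and the part that annotation and mapping have in them was not tested.

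BCL2L1, whose extra copies protect cultured pluripotent cells from death, was at 55.5 CPM (53.04 to 58.03) and 55.2 CPM (53.01 to 57.43) in human cells on days 0 and 7. It was at 43.1 CPM (39.2 to 47.2) and 49.5 CPM (47.2 to 51.9) in cynomolgus cells. The human ratio of day 7 to day 0 was 0.994 (0.936 to 1.06) and the cynomolgus ratio 1.15 (1.04 to 1.28), which places both days close together in each line. MCL1, a short-lived protein whose amount follows its synthesis closely, was the most abundant anti-death transcript in all 4 groups. Its level was 115 CPM (111 to 118) and 98.4 CPM (95.5 to 101) in human cells and 115 CPM (108 to 121) and 116 CPM (112 to 119) in cynomolgus cells. The human ratio was 0.858 (0.822 to 0.896) and the cynomolgus ratio 1.01 (0.948 to 1.08). Such orders between genes are on the CPM scale of 3' UMI counts, which register 1 end per molecule and are not divided by transcript length.

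Of the effectors, BAX was the most abundant of the 10 members in human cells on both days. It was at 317 CPM on day 0 (311 to 323, 11000 UMIs) and 157 CPM on day 7 (154 to 161, 6881 UMIs), a level 2.02-fold lower on day 7 (1.96 to 2.08). That is the member just inside the 2-fold limit, and it passed it in 9 of 13 alternative settings, with log2 changes of -1.12 to -0.92. BAK1, the other effector, was much rarer, at 10.6 CPM (9.56 to 11.8) and 7.69 CPM (6.88 to 8.55) in human cells. In cynomolgus cells BAK1 was at 10.5 CPM (8.63 to 12.6) and 9.93 CPM (8.91 to 11.04), with intervals that overlap each other.

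BAX has no cynomolgus symbol in the files, and its human-genome copy was counted in cynomolgus cells at a level that no other member approached. That copy reached 335 CPM on day 0 (325 to 346, 3583 UMIs) and 208 CPM on day 7 (203 to 213, 7212 UMIs) in cynomolgus cells, on the scale of their own-genome UMIs. These are 106% and 132% of the level of the same copy in human cells. Human copies of the other 9 members stood at 2.13% to 15.6% of their human-cell level on day 0 and at 0.975% to 11.4% on day 7, and human mitochondrial transcripts at 5.01% and 0.746%. The human BAX copy in cynomolgus cells was 1.61-fold lower on day 7 than on day 0 (1.55 to 1.68). Whether these UMIs came from macaque BAX was not tested, so they enter no count or balance unless named.

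**Figure D1:**
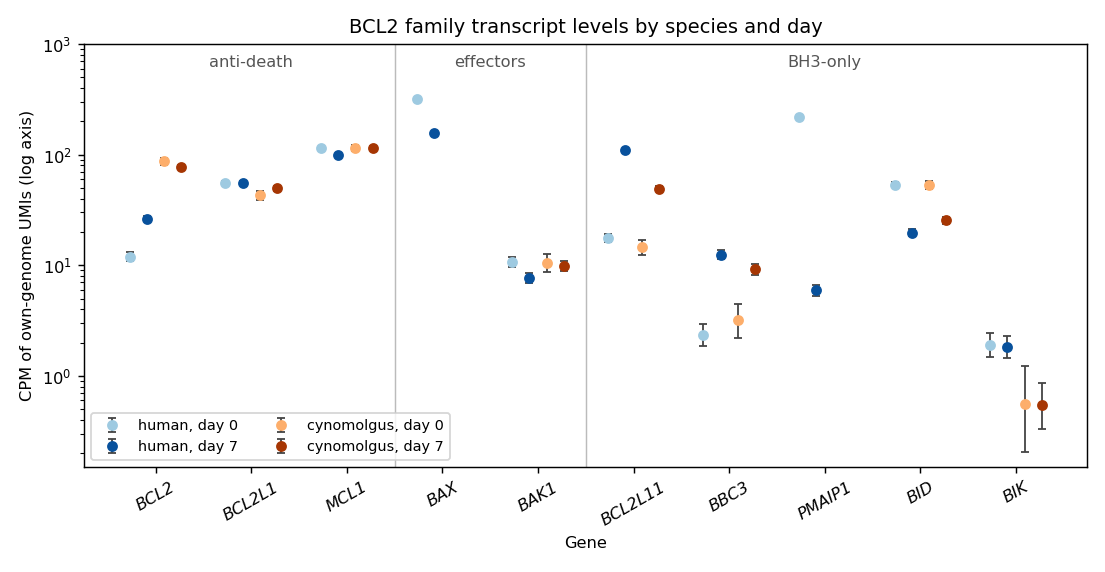
Level of each member in each group of cells, as CPM of own-genome UMIs on a log axis, with exact Poisson 95% intervals. PMAIP1 in human cells drops from 218 to 5.92 CPM, BCL2L11 is higher on day 7 in both species, and the human and cynomolgus BCL2 points do not meet; BAX and PMAIP1 have human points only.

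Among the BH3-only members, PMAIP1 showed the widest difference between days. In human cells it was at 218 CPM on day 0 (213 to 223, 7559 UMIs) and 5.92 CPM on day 7 (5.22 to 6.69, 259 UMIs). The level was 36.8-fold lower on day 7 (32.5 to 41.8), and the log2 change was -4.98. With each cell thinned to 2500 UMIs, 39.7% of human cells held a PMAIP1 UMI on day 0 (38.3% to 41.1%) and 1.30% on day 7 (1.06% to 1.58%). Unthinned shares were 66.2% and 2.91%. The human copy was found in 2.40% and 0.0168% of thinned cynomolgus cells, the background against which these shares stand, so the day 7 share lay above the background of its own library and below that of day 0. In cynomolgus cells that human copy gave 105 UMIs on day 0 and 2 on day 7, and no level of a macaque PMAIP1 is given.

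BCL2L11 went the other way. Human cells held it at 17.5 CPM on day 0 (16.2 to 19.0, 608 UMIs) and 109 CPM on day 7 (106 to 112, 4778 UMIs), a 6.23-fold higher level (5.73 to 6.79). Cynomolgus cells held it at 14.6 CPM (12.4 to 17.1, 156 UMIs) and 49.4 CPM (47.1 to 51.8, 1711 UMIs), a 3.38-fold higher level (2.87 to 4.01). The lines were thus close on day 0, with a cynomolgus to human ratio of 0.833, and apart on day 7, with a ratio of 0.452. At 2500 UMIs per cell, 4.78% and 23.6% of human cells and 3.61% and 11.4% of cynomolgus cells held a BCL2L11 UMI on days 0 and 7. Unthinned shares were 10.6% and 39.6% in human and 7.14% and 21.2% in cynomolgus cells. The copy of the other genome was found in at most 0.470% of thinned cells.

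BBC3 (PUMA), which binds every anti-death member, was rare on day 0 in both lines. Its human level was 2.37 CPM (1.88 to 2.94, 82 UMIs) on day 0 and 12.5 CPM (11.5 to 13.6, 547 UMIs) on day 7, a 5.29-fold higher level (4.19 to 6.76). Its cynomolgus level was 3.18 CPM (2.20 to 4.45, 34 UMIs) and 9.21 CPM (8.23 to 10.3, 319 UMIs), a 2.89-fold higher level (2.03 to 4.25). The thinned shares of cells with a UMI were 0.405% and 3.13% in human and 0.851% and 2.35% in cynomolgus cells, and the unthinned human shares were 1.54% and 6.25%. Leaving out cynomolgus day 7 clusters 1 and 5, which have the hypoxia genes ADM and ANKRD37 among their top genes, brought the cynomolgus log2 change of BBC3 from 1.29 to 0.98, below the 2-fold limit.

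BID, which caspase-8 cleaves to pass a death receptor signal to mitochondria, was lower on day 7 in both lines. In human cells it was at 53.6 CPM (51.2 to 56.1) and 19.7 CPM (18.4 to 21.1), a level 2.72-fold lower (2.50 to 2.95). In cynomolgus cells it was at 53.1 CPM (48.8 to 57.6) and 25.4 CPM (23.8 to 27.1), a level 2.09-fold lower (1.88 to 2.32). The day 0 levels of the lines were almost equal, with a cynomolgus to human ratio of 0.990. The cynomolgus change stayed past the 2-fold limit in 9 of 12 settings, with log2 changes of -1.07 to -0.955. BIK, a BH3-only protein of the endoplasmic reticulum, stayed under 2 CPM in all 4 groups: 1.90 and 1.83 CPM in human cells, and 6 and 19 UMIs in cynomolgus cells on days 0 and 7. It fell short of the 5 CPM needed to enter a count.

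With that minimum, 9 of 10 human and 7 of 8 cynomolgus copies were counted. In human cells 3 of 9 were at least 2-fold higher on day 7 (BCL2, BCL2L11 and BBC3), where 14.9% of 12010 genes were, and 3 of 9 were at least 2-fold lower (BAX, PMAIP1 and BID), where 14.4% were. Human BCL2 passed the limit in 12 of 13 alternative settings. Its log2 change was 0.97 without the 5% of cells with the most UMIs. In cynomolgus cells 2 of 7 were at least 2-fold higher (BCL2L11 and BBC3), where 13.8% of 11276 genes were, and 1 of 7 was at least 2-fold lower (BID), where 11.0% were. The members' median log2 change was -0.22 in human and 0.02 in cynomolgus cells, against 0.05 and 0.06 over all genes counted. Of the counted members short of the limit, the nearest were BAK1 in human cells, with a log2 change of -0.42, and BCL2L1 in cynomolgus cells, with 0.20.

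**Figure D2:**
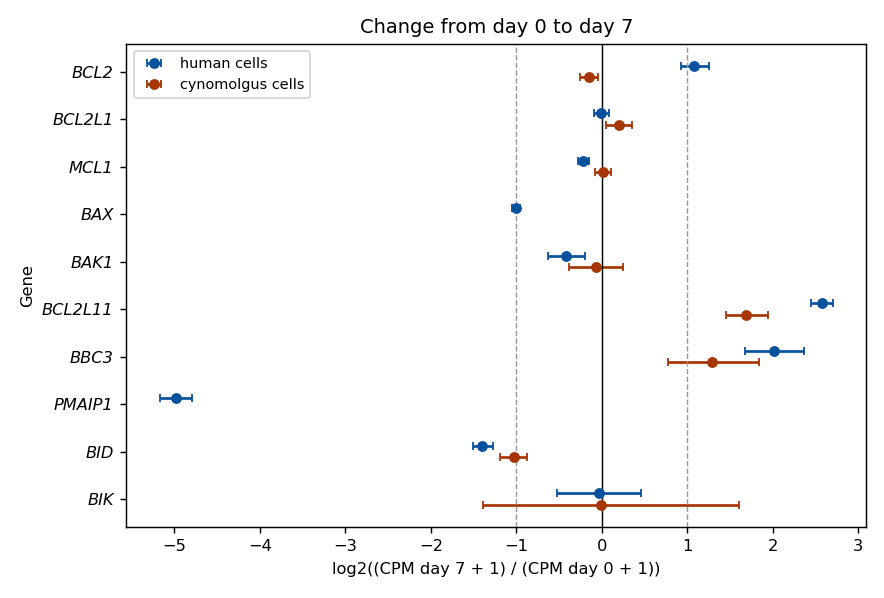
Change of each member from day 0 to day 7 as log2((CPM day 7 + 1)/(CPM day 0 + 1)), with bars for the 95% counting interval of the ratio and dashed lines at the 2-fold limit. PMAIP1 stands at -4.98 in human cells, BCL2L11 and BBC3 lie right of the limit in both species, and BCL2 lies right of it in human cells only.

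The change of each of 7 members could be set side by side in both lines. The cynomolgus minus human difference in log2 change was -1.23 for BCL2, -0.88 for BCL2L11 and -0.72 for BBC3. It was 0.20 for BCL2L1, 0.23 for MCL1, 0.35 for BAK1 and 0.36 for BID. Of the 7, 1 (BCL2) was at least 2-fold below and 0 at least 2-fold above. Among 9094 genes counted in both species 7.19% lay at least 2-fold below and 7.92% above. The 3 members higher on day 7 in human cells had the smaller change in cynomolgus cells, and BID, lower in both, had the smaller change there too.

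Summed over the family, the balance leaned less to the pro-death side on day 7 in human cells. Pro-death transcripts were 77.3% of the family's UMIs on day 0 (76.8% to 77.8%) and 63.6% on day 7 (62.9% to 64.2%). The anti-death sum was 182 and 180 CPM and the pro-death sum 621 and 314 CPM, of which the effectors made 328 and 165 CPM and the BH3-only members 293 and 149 CPM. The log2 ratio of pro-death to anti-death CPM went from 1.77 to 0.80, a difference of -0.97 (-1.02 to -0.91). These sums are of transcripts, and protein amounts were not measured. The difference depended on which members were summed. Without PMAIP1 it was -0.37. Without BAX and MCL1, the most abundant member of each side, it kept its sign and was larger. Over the 8 members with a symbol in both species, which leaves out BAX and PMAIP1, it turned to 0.83, with pro-death shares of 32.1% on day 0 and 45.6% on day 7.

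In cynomolgus cells the 5 pro-death copies with a symbol made 25.1% of the UMIs of the 8 members on day 0 (23.7% to 26.6%) and 28.0% on day 7 (27.1% to 28.8%). The anti-death sum was 244 and 243 CPM and the pro-death sum 81.9 and 94.5 CPM. The log2 ratio went from -1.58 to -1.37, a difference of 0.21 (0.09 to 0.34), which was 0.11 with species called at 80% of UMIs. Adding the copies of both genomes, which brings in BAX and PMAIP1 through the human annotation, turned this difference to -0.47. Over the same 8 members the pro-death share was thus higher on day 7 in both lines. With BAX and PMAIP1 counted it was lower in human cells. In cynomolgus cells it was lower with the human-genome copies added. Among these copies, the BAX UMIs are of untested origin. The PMAIP1 UMIs, 105 and 2 on days 0 and 7, stood at 4.51% and 0.975% of the human-cell level. Human mitochondrial transcripts stood at 5.01% and 0.746% there. The cynomolgus balance cannot be compared with the human balance over all 10 members.

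**Figure D3:**
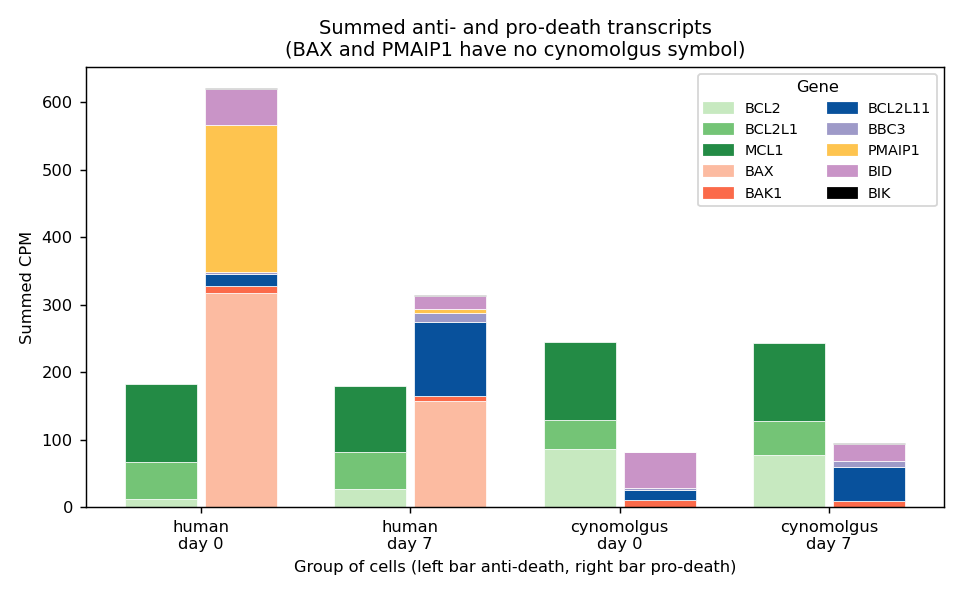
Summed CPM of anti-death members (left bar of each pair) and pro-death members (right bar) in each group, stacked by gene. The anti-death bars differ little between days within a species, the human pro-death bar reaches 621 CPM (day 0) and 314 CPM (day 7), and the cynomolgus pro-death bars hold no BAX or PMAIP1.

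The makeup of the BH3-only group turned over more than its sum. In human cells PMAIP1 was 74.3% of BH3-only UMIs on day 0, followed by BID with 18.3% and BCL2L11 with 5.98%. On day 7 BCL2L11 was 73.2%, followed by BID with 13.2%, BBC3 with 8.38% and PMAIP1 with 3.97%. In cynomolgus cells, with no PMAIP1 symbol, BID was 74.3% on day 0 and BCL2L11 20.4%. On day 7 BCL2L11 was 58.4%, BID came next with a share between 28.4% and 31.7%, and BBC3 was 10.9%. On day 7 BCL2L11 was the most abundant of the 5 human BH3-only copies and of the 4 cynomolgus copies with a symbol.

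Cells of each species and day were clustered without the members, and the clusters are given by number and leading genes. On day 0, human cluster 5 (422 cells), led by DLK1, SIX3 and IGFBP5, stood apart from the other human cells in both leading BH3-only genes. It held PMAIP1 at 93.3 CPM (80.6 to 107.3) against 226 CPM in the other cells, and BCL2L11 at 43.0 CPM (34.6 to 52.9) against 15.9 CPM. Both values lay between those of the day 0 and day 7 human cells as a whole. The cluster's neural progenitor markers summed to 2778 CPM against 360 CPM in the other day 0 cells, and its pluripotency markers to 2639 against 4803 CPM. In the matching cynomolgus cluster 4 (85 cells), led by DLK1 and with SIX3 among its top genes, BCL2L11 was at 14.7 CPM (5.90 to 30.2) against 14.6 CPM, on 7 UMIs. Neural progenitor markers there summed to 2365 CPM against 321 CPM. Leaving both clusters out moved the log2 change of BCL2L11 from 2.57 to 2.71 in human cells and kept it at 1.69 in cynomolgus cells.

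Other day 0 clusters differed in BAX and BID. Human cluster 4 (547 cells) had a median of 1880 UMIs and 1.72% mitochondrial UMIs, under that of every other day 0 human cluster, and held BAX at 512 CPM (471 to 557) against 311 CPM and BCL2 at 2.72 CPM on 3 UMIs against 12.3 CPM. Its depth and low mitochondrial share moved with these values, and their part was not tested. Cluster 6 (300 cells), led by NPTX1 and DAZL, held BAX at 444 CPM (417 to 472) against 308 CPM and BID at 28.3 CPM (21.9 to 36.1) against 55.4 CPM. Cluster 7 (119 cells), with hypoxia genes such as BNIP3 and PFKFB4 in the lead, held PMAIP1 at 288 CPM (250 to 329) against 216 CPM. Cluster 2 (821 cells), led by FBXL20 and DTL, held PMAIP1 at a similar 291 CPM (275 to 307) against 207 CPM.

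On day 7, 3 of the 4 largest human clusters were led by cell cycle genes, and the members were unevenly spread over them. Cluster 0 (3609 cells), led by MXD4 and low in G2/M genes, held BCL2 at 16.0 CPM (14.1 to 18.1) against 32.3 CPM in the other cells and BAX at 121 CPM (116 to 127) against 177 CPM. Cluster 1 (2800 cells), led by the S phase genes RRM2 and CDC6 besides H1-5, held BAX at 200 CPM (193 to 206) against 130 CPM and PMAIP1 at 9.31 CPM (7.93 to 10.9) against 3.68 CPM. Cluster 2 (993 cells), with UBE2C and PLK1 among its top genes, held BCL2 at 41.6 CPM (37.2 to 46.3) against 23.1 CPM. Cluster 3 (559 cells), led by PTTG1 and CDC20, which act in mitosis, held BCL2 at 14.2 CPM (9.82 to 19.8) against 27.2 CPM. Median depth moved with BCL2, at 4007 UMIs in cluster 0, 5710 in cluster 1, 7371 in cluster 2 and 4031 in cluster 3, and its part was not tested. BCL2L11 was more even, from 100 CPM in cluster 1 to 136 CPM in cluster 3, and every day 7 cluster of over 100 cells lay above every day 0 cluster in BCL2L11 and below every day 0 cluster in PMAIP1.

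**Figure D4:**
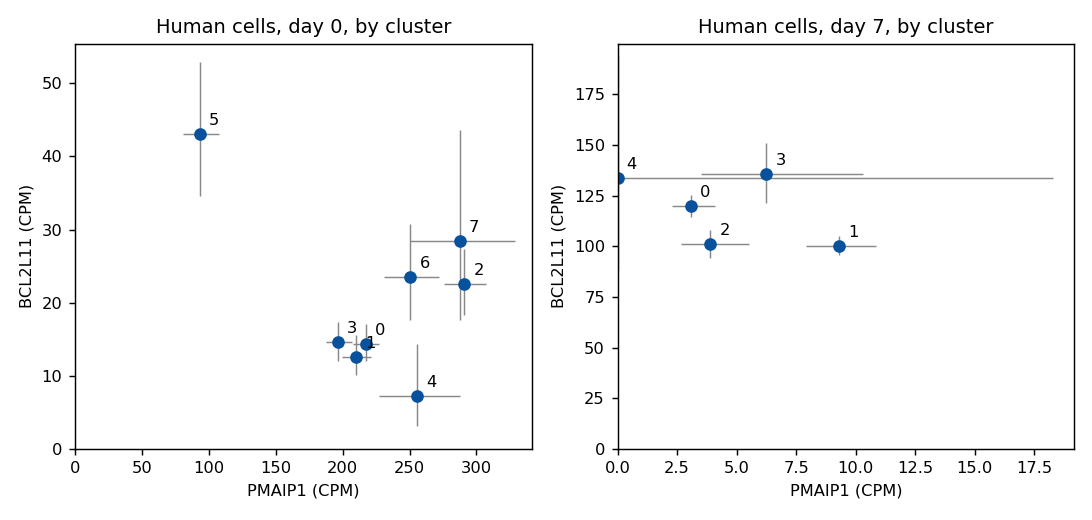
PMAIP1 against BCL2L11 level (CPM, linear axes that differ between panels) in each human cluster of at least 100 cells, with exact Poisson 95% intervals as lines. On day 0, cluster 5 stands alone at low PMAIP1 (93.3 CPM) and high BCL2L11 (43.0 CPM). On day 7, cluster 4 (128 cells) had 0 PMAIP1 UMIs, which allows up to 18.3 CPM. Cells of that day 7 cluster had a median of 1338 own-genome UMIs and 13.2% mitochondrial UMIs.

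In cynomolgus cells BCL2 was uneven on day 0. Cluster 2 (443 cells), led by ZEB1 and GBX2, held it at 127 CPM (114 to 142) against 74.2 CPM in the other cells, and held BCL2L11 at 8.29 CPM (5.13 to 12.7) against 16.6 CPM. On day 7 cluster 1 (1455 cells), led by CCL2 and ADM, and cluster 5 (413 cells), led by ADM and ANKRD37, had hypoxia markers summing to 2770 and 2943 CPM against 1007 and 1213 CPM in the cells outside each. They held BBC3 at 13.6 CPM (10.9 to 16.7) and 17.3 CPM (12.6 to 23.2) against 8.17 and 8.55 CPM. MCL1 was at 138 CPM (129 to 147) in cluster 1 against 111 CPM, and at 113 CPM (101 to 127) in cluster 5 against 116 CPM. All the cluster values describe 1 library each.

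Split at the median depth, BCL2 was lower in the shallower cells, with intervals that did not overlap, in 3 of 4 groups. On day 0, shallower and deeper human cells had it at 11.5 CPM (9.57 to 13.6) and 12.2 CPM (10.8 to 13.7), with intervals that overlap. Shallower and deeper human day 7 cells had BCL2 at 17.5 and 31.0 CPM, and cynomolgus cells had it at 69.6 and 97.5 CPM (day 0) and 64.4 and 84.2 CPM (day 7). PMAIP1 was at 240 and 207 CPM in shallower and deeper human day 0 cells, and BCL2L11 at 114.1 and 106.8 CPM on day 7, gaps far smaller than those between days. Split at the median mitochondrial share, PMAIP1 was at 206 and 231 CPM on day 0 and BCL2L11 at 109 and 110 CPM on day 7.

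The rest of the family was followed in a list of 13 further genes, 8 of them at 5 CPM or more in each species. In human cells 2 of 8 were at least 2-fold higher on day 7 and 1 lower, beside 14.9% and 14.4% of all genes, with a median log2 change of 0.61. In cynomolgus cells 2 were higher and 3 lower, beside 13.8% and 11.0%, with a median of 0.13. BNIP3L, a receptor for mitophagy, went from 57.7 to 187 CPM in human and from 96.3 to 378 CPM in cynomolgus cells. BOK, an effector that works without BAX and BAK1, went from 14.3 to 1.12 CPM and from 33.0 to 8.86 CPM. BCL2L14 differed in direction, from 17.3 to 38.2 CPM in human and from 8.24 to 2.40 CPM in cynomolgus cells, and BCL2L12 went from 168 to 87.3 CPM and from 86.1 to 39.0 CPM. The other genes named by rank had log2 changes of 0.99 (BCL2L2) and -0.39 (BAD) in human cells and of 1.44 (BNIP3) and 0.70 (BMF) in cynomolgus cells.

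At and below the mitochondrion, 15 human genes of the death machinery reached 5 CPM. Of these, 1 was at least 2-fold higher and 4 lower, beside 14.9% and 14.4% of all genes, with a median log2 change of -0.50. APAF1, the scaffold of the apoptosome, went from 19.6 to 62.3 CPM. CYCS, the cytochrome c that the scaffold binds, went from 487 to 115 CPM, and ENDOG (log2 change -1.78), VDAC1 (-1.13) and VDAC2 (-1.08) were also lower. The log2 change of CASP2 (0.33) was under the limit. Of 11 cynomolgus genes counted 0 passed the limit in either direction, beside 13.8% and 11.0%, with a median of -0.32. APAF1 went from 38.8 to 58.4 CPM there, the next changes were 0.42 (CASP2), 0.09 (DFFA), -0.53 (VDAC2), -0.75 (HTRA2) and -0.82 (CASP6), and CYCS, ENDOG and VDAC1 have no cynomolgus symbol.

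Of 9 human inhibitors of death 1 was at least 2-fold higher and 0 lower (median log2 change 0.09), beside 14.9% and 14.4% of all human genes. Of 7 cynomolgus inhibitors 0 were (median 0.00), beside 13.8% and 11.0% of all cynomolgus genes. CFLAR, the decoy of caspase-8, went from 6.89 to 16.0 CPM in human and from 9.83 to 13.5 CPM in cynomolgus cells. XIAP, which blocks caspases directly, went from 33.9 to 58.6 CPM in human and from 24.7 to 22.8 CPM in cynomolgus cells. The remaining named changes in human cells were BIRC2 0.58, FAIM -0.44, TMBIM6 -0.54 and BIRC5 -0.67, and in cynomolgus cells BIRC2 0.47, FAIM 0.40, BIRC6 -0.06 and API5 -0.29.

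Among 14 counted regulators of MCL1, BIM and NOXA in human cells, 1 was at least 2-fold higher and 5 lower, beside 14.9% and 14.4% of all genes (median log2 change -0.17). Of 13 in cynomolgus cells 0 were higher and 2 lower, beside 13.8% and 11.0% (median -0.19). FOXO1, a factor that can switch on BCL2L11, went from 219 to 27.8 CPM in human and from 156 to 7.07 CPM in cynomolgus cells. FOXO3, its relative, had log2 changes of 0.96 and 0.12. The stress factor ATF4, which can switch on PMAIP1, went from 124 to 33.0 CPM in human and from 197 to 93.0 CPM in cynomolgus cells, and CHAC1, a gene it drives, from 19.5 to 1.01 CPM and from 4.87 to 5.60 CPM. MYC went from 32.6 to 4.03 CPM in human and from 34.0 to 26.3 CPM in cynomolgus cells. Other changes named by rank were GSK3B 1.03 and BTRC 0.81 in human cells, and DDIT3 0.66, GSK3B 0.51, BTRC 0.31 and HSPA5 -0.63 in cynomolgus cells. The part of these regulators in the changes of the members was not tested.

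BCL2L1 lies in a stretch of the genome that human pluripotent lines often gain in culture, so its neighbours were listed. Of 9 counted in each species, 1 human gene was at least 2-fold higher and 1 lower (median log2 change 0.16), near the 14.9% and 14.4% of all genes. Of the cynomolgus neighbours 0 were higher and 1 lower (median 0.28), beside 13.8% and 11.0%. ID1, a BMP target, went from 174 to 21.6 CPM in human and from 108 to 48.1 CPM in cynomolgus cells, and ASXL1 from 73.7 to 182 CPM and from 65.4 to 117 CPM. Log2 changes of HM13 (-0.81 and -0.96) and PLAGL2 (-0.30 and 0.60) came next in human and cynomolgus cells, with PDRG1 (0.50) and TM9SF4 (0.30) named in human and TPX2 (0.44) and POFUT1 (-0.12) in cynomolgus cells. Copy number was not measured.

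The genes whose levels ran most like BCL2L11 and BID were sought over 23 clusters of at least 100 cells from all 4 groups, among 8224 genes. TLE4 (r = 0.967), POLI (0.954) and OGA (0.951) were nearest to BCL2L11. TLE4, a corepressor of the Groucho family, went from 80.4 to 710 CPM in human and from 91.6 to 321 CPM in cynomolgus cells. IFRD2 (0.969), WDR46 (0.957) and BOP1 (0.946) were nearest to BID, and BOP1, which acts in ribosome assembly, went from 45.1 to 6.91 CPM and from 48.1 to 17.8 CPM. The clusters share libraries and the day 0 to day 7 difference, so these correlations describe the clusters and carry no test. PMAIP1 has no value here because it has no cynomolgus symbol.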

How the data were processed

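The authors deposited 1 matrix of UMI counts for each day (10x Chromium 3' kit v3.1 per the labels' protocols). Cell Ranger produced them, in version 7.1.0 per the file headers and 7.2.0 per the submitters' processing notes, which also name GRCh38. Cynomolgus genes have a prefix with Macaca_fascicularis 6.0 and Ensembl release 107. Mapping settings, with the use of intronic reads, were not given in the sources used here. The libraries hold 71377836 and 99430745 UMIs in 12093 and 16403 barcodes on days 0 and 7.

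Barcodes needed at least 1000 UMIs, 500 genes and no more than 20% mitochondrial UMIs, and were called a species at 90% of UMIs. No doublet caller was run, so doublets of cells from 1 line remain. UMIs were summed per species and day, mitochondrial genes left out, giving 34670316 and 43723892 human and 10683788 and 34639499 cynomolgus UMIs. Levels are CPM and changes log2((CPM day 7 + 1)/(CPM day 0 + 1)), which understates changes of low genes. Counts take copies that reached 5 CPM on day 0 or day 7, and a 2-fold change is a description of size. Intervals are exact Poisson or exact binomial 95% intervals, and those of the balance differences use a normal approximation. For shares of cells, each cell was thinned to 2500 own-genome UMIs, leaving out 516 and 410 human and 19 and 510 cynomolgus cells. Clusters used 2000 variable genes without the members, 30 components, 15 neighbours and Leiden resolution 0.5.

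The members, lists and markers were chosen with earlier results of these data known. All members are named. For each further list the 3 genes highest and the 3 lowest in log2 change are named for each species, and values of other list genes were chosen after they were seen. A list and some genes that met this rule are not reported here. Most-like genes were sought for the 3 members with the largest human change at 20 CPM or more. Log2 changes and the intervals of ratios were tested on simulated Poisson counts, while species calls, thinning and clusters were not simulated. Alternatives covered the species call, cell filters, CPM total, scaling, cell weights, pseudocount, minimum level, copies of both genomes, thinning depth, resolution and the makeup of the balance. Clusters were made with scanpy 1.11.5, leidenalg 0.10.2 and scikit-learn 1.9.0, intervals with scipy 1.17.1, tables with pandas 2.3.3 and numpy 2.4.6, and plots with matplotlib 3.10.9, under Python 3.11.15.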

Additional observations from a re-analysis of the deposited data

Results flagged for a closer look

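BCL2 moved differently in the lines. Its log2 change was 1.08 in human and -0.15 in cynomolgus cells, a difference of -1.23 that was not tested, since each line and day is 1 library.

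The human-genome copy of BAX was counted in cynomolgus cells, outside the own-genome measurement, at 335.4 CPM (day 0) and 208.2 CPM (day 7), above the level of 317 and 157 CPM in human cells. BAX has no cynomolgus symbol in the files, and the origin of these UMIs was not tested.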

How the results depend on the processing

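The human counts of members at least 2-fold higher and lower, 3 and 3, stayed within 2 to 3 under every alternative run. The cynomolgus count lower was 0 with CPM of all UMIs of both genomes, 0 without the 5% of cells with the most UMIs, and 2 with copies of both genomes summed. Without cynomolgus day 7 clusters 1 and 5 (ADM and ANKRD37 among their top genes), an alternative chosen after seeing the data, the cynomolgus counts were 1 higher and 0 lower, and a minimum of 20 CPM left 1 higher. The human balance difference was -1.07 with equal weight per cell, -0.75 from the mean of log2 values, -1.23 without the most abundant member of each side, -0.37 without PMAIP1 (added after seeing the data), and reversed to 0.83 over members measured in both species. The cynomolgus balance difference was 0.11 with species called at 80% of UMIs, which gave 4466 cynomolgus day 0 cells in place of 2016 and a BCL2 change of -0.02 in place of -0.15. It was 0.35 from the mean of log2 values, 1.29 without the most abundant member of each side, and reversed to -0.47 with copies of both genomes summed. Besides what the makeup of each sum shows, the cause was not tested. Of 226 recomputed member changes 220 moved by less than their counting interval. Of 72 shares of cells 66 moved with the thinning depth. Calling species at 95% of UMIs left 0 cynomolgus day 0 cells and gave no cynomolgus value. Rescaling by the median ratio shifted changes by 0.04 in human and 0.03 in cynomolgus cells. No paired analysis was possible because each day is 1 library without replicate numbers.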
